A study of Mus musculus with 8 samples.

Results

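The genes of vitamin D metabolism were followed in whole kidneys of mice that had lost Xpr1, a phosphate exporter, from the renal tubule. They comprised 6 genes, taken by symbol from the 46517 genes counted: the hydroxylases Cyp2r1, Cyp27a1, Cyp27b1 and Cyp24a1, the receptor gene Vdr and the binding protein gene Gc. All 6 had enough reads to be tested. The kidneys came from 4 cKO mice (libraries KO16, KO18, KO19 and KO20) and 4 Control mice (C10, C11, C13 and C14). The cKO mice were Xpr1lox/lox-Pax8-rtTA/LC-1: exon 2 of Xpr1 is floxed, the Pax8 promoter drives the doxycycline-dependent activator rtTA in tubule cells, and LC-1 supplies Cre under that activator. Control mice were littermates labelled Xpr1lox/lox without those transgenes, so the transgenes and the loss of Xpr1 cannot be told apart. Doxycycline was begun at 8 weeks of age in cKO mice and in parallel in their Control littermates; both groups drank it at 2 mg/ml over 2 weeks and ate standard chow. Cells outside the Pax8 lineage keep Xpr1, and the sex of the mice is not given in the sources used here.

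Vitamin D is inert until it has been hydroxylated at separate positions. CYP2R1 and CYP27A1 can add the side-chain hydroxyl, mainly in the liver, to give the form that circulates bound to the vitamin D binding protein, the product of Gc. The proximal tubule reclaims this complex from the filtrate through megalin, and CYP27B1, a mitochondrial enzyme of the same cells, makes the active hormone calcitriol. CYP24A1 starts the breakdown of calcitriol and of its precursor. Calcitriol acts through VDR, a nuclear receptor that pairs with a retinoid X receptor, and Cyp24a1 is among its best known induced genes. Parathyroid hormone is known to raise Cyp27b1 and lower Cyp24a1 in the kidney, and FGF23 to do the opposite.

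Between 20366113 and 26155030 reads per library were assigned to genes. Xpr1 itself stood at 5.74, 26.5, 22.0 and 12.0 CPM (a gene's reads as a share of the TMM-scaled library) in KO16, KO18, KO19 and KO20, against 80.2, 126, 108 and 103 CPM in C10, C11, C13 and C14, so each library followed its label. The kidney markers were present: the summed level of 5 thick ascending limb genes was 3855 to 5775 CPM in cKO and 4195 to 5805 CPM in Control libraries. Libraries differed in their lean to long transcripts, given by the mean log2 CPM of the longest sixth of the tested genes minus that of the shortest sixth. This difference was -0.034 in KO16, 2.401 in KO18, 2.18 in KO19 and 0.90 in KO20, against 1.32, 2.58, 1.74 and 1.68 in C10, C11, C13 and C14. KO16 and KO20 thus leaned most to short transcripts and C11 most to long ones, and values without these libraries are given beside the results that they move most. That setting compares KO18 and KO19 with C10, C13 and C14, and edgeR called 4689 genes higher and 4486 lower of 15881 tested. With the lean as a covariate it called 2530 higher and 2538 lower of 15382. A call in these settings is therefore common among all genes.

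The main change in the transcripts of vitamin D metabolism was the fall of Cyp24a1, which encodes the inactivating enzyme, 11.9-fold below its Control level. Gc rose as well, but its call held in only 3 of 8 single leave-outs, against 8 of 8 for Cyp24a1. Across the 15382 genes tested with edgeR's quasi-likelihood test, 14.1% were called at a Benjamini-Hochberg adjusted p under 0.05 (7.5% higher and 6.61% lower in cKO). Among the 6 vitamin D genes, 1 was called higher (Gc), 1 lower (Cyp24a1) and 4 did not pass. For 4 of the 6 genes (Cyp24a1, Vdr, Cyp27a1 and Gc) no cKO library fell within the Control range in TMM-scaled CPM. The same held for 22.8% of all tested genes. For Vdr and Cyp27a1 this separation depended on the scaling. In TPM, which corrects for length, KO18 and KO19 lay within the Control range of both genes, whereas Cyp24a1 and Gc stayed separate. The median log2 fold change of the 6 genes was -0.93, and that of all tested genes was 0.0066.

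**Figure D1:**
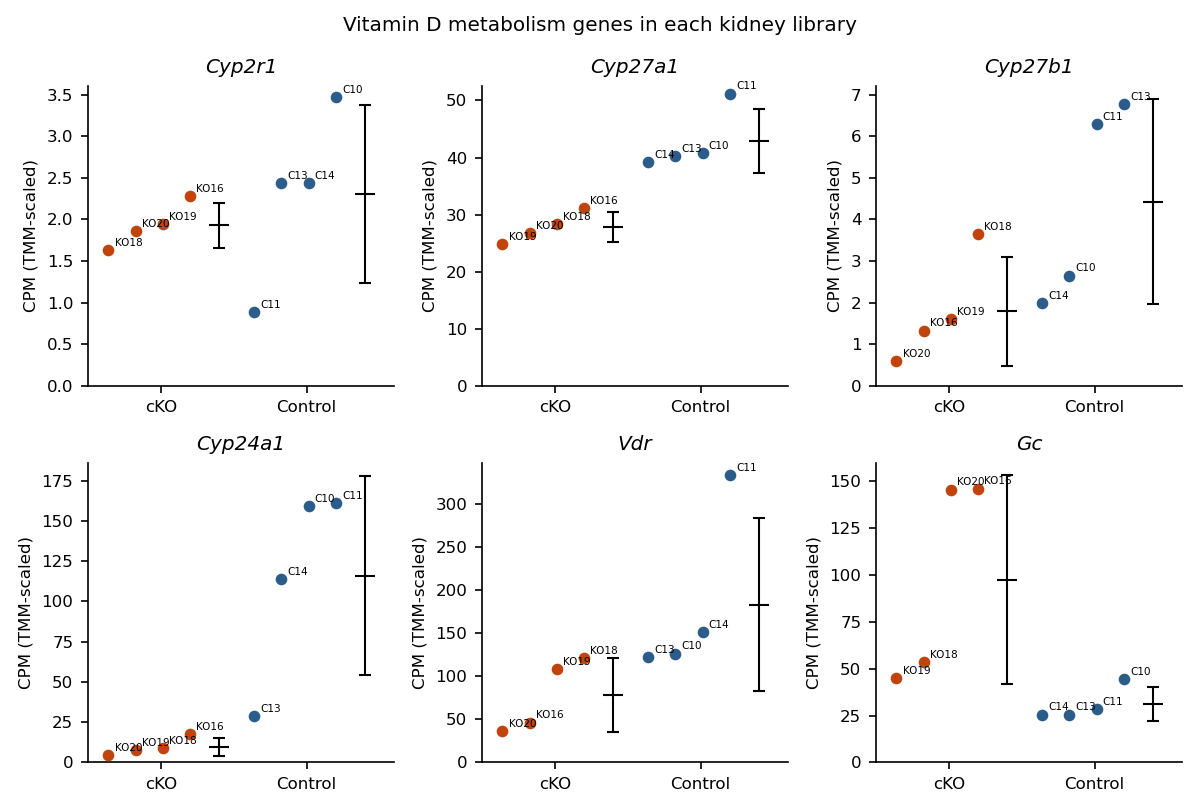
CPM (TMM-scaled, linear axes from 0) of the 6 genes in each library, cKO left and Control right; points are single mice, ordered by value, and bars give the mean ± SD of 4 mice. Cyp24a1 is at most 17.6 CPM in the cKO libraries, and Gc stands at 146 CPM in KO16 and KO20 but at 53.6 and 44.9 CPM in KO18 and KO19.

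Cyp24a1 (ENSMUSG00000038567, chromosome 2, 170482708 to 170497145, minus strand; all positions are in GRCm38) encodes the inactivating hydroxylase. It stood at 17.6 CPM in KO16, 8.93 in KO18, 7.88 in KO19 and 4.72 in KO20, against 159 CPM in C10, 161 in C11, 29.0 in C13 and 114 in C14. Every cKO library was below every Control library, but C13 stood far nearer to the cKO range than the other Control kidneys. The means were 9.78 ± 5.50 CPM in cKO and 116 ± 61.8 CPM in Control (SD, n = 4 each). The log2 fold change was -3.57 (SE 0.60, edgeR adjusted p = 0.00491), the 54th lowest of the 15382. With single libraries left out it ranged from -4.01 to -3.23 (adjusted p 0.00423 to 0.0244), and it was -3.62 with KO16, KO20 and C11 all left out (adjusted p = 0.000618). The gene shares 83 exonic bases with Pfdn4 on the opposite strand, and the strand setting of the counting is not given in the sources used here. Pfdn4, a chaperone subunit gene, had 48.4 ± 35.8 CPM in cKO and 24.3 ± 11.4 CPM in Control kidneys (log2 fold change 0.99, adjusted p = 0.333).

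Cyp24a1 is expressed mainly in tubule cells, and proximal tubule markers moved in the same direction. Of 12 proximal tubule markers 9 fell, 0 rose and 3 did not pass, with a median log2 fold change of -1.58. Their summed level was 2753 to 4556 CPM in cKO and 8398 to 13008 CPM in Control libraries. In whole kidney, fewer cells of a type and less RNA per cell cannot be told apart. Set against the mean log2 CPM of these markers in the same library, Cyp24a1 stood at -2.43, -4.10, -3.89 and -3.79 in KO16, KO18, KO19 and KO20, against -0.71, -1.40, -3.38 and -1.39 in C10, C11, C13 and C14. The groups overlapped through C13 and KO16. The difference of -1.83 did not pass the two-sided exact permutation test (p = 0.0571, and 0.114 adjusted over 2 such tests; the smallest p that 4 against 4 allows is 0.0286). With single libraries left out the difference ranged from -2.38 (without C13, exact p = 0.0571, the smallest possible with 3 against 4) to -1.49 (without C10, exact p = 0.114).

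Cyp27b1 (ENSMUSG00000006724, chromosome 10, 127048250 to 127053006, plus strand), the activating enzyme, was a rare transcript in these kidneys. Its reads numbered 25, 114, 53 and 14 in KO16, KO18, KO19 and KO20, or 1.33, 3.65, 1.61 and 0.59 CPM, against 55, 157, 156 and 45 reads in C10, C11, C13 and C14, or 2.65, 6.30, 6.78 and 1.99 CPM. KO18 lay above C10 and C14, so the groups overlapped. The log2 fold change was -1.29 (SE 0.58, edgeR adjusted p = 0.188) and did not pass. It ranged from -1.91 to -0.96 when single libraries were left out (adjusted p 0.0528 to 0.404), and was -0.59 without KO16, KO20 and C11 (adjusted p = 0.324).

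The balance of breakdown to activation was read within each library, where scaling cancels. KO16, KO18, KO19 and KO20 held 13.2, 2.45, 4.91 and 8.00 Cyp24a1 reads per Cyp27b1 read, against 60.1, 25.6, 4.28 and 57.2 in C10, C11, C13 and C14. C10, C11 and C14 were above every cKO library, and C13 was below KO16, KO19 and KO20. C13 held the least Cyp24a1 of the Control kidneys. Its Cyp27b1 was the highest of them in TMM-scaled CPM (6.78, against 6.30 in C11) but not in reads (156, against 157 in C11) or in TPM (4.95, against 6.26 in C11). On the log2 scale the ratio averaged 2.50 ± 1.001 in cKO and 4.60 ± 1.76 in Control (SD, n = 4 each), and the difference of -2.10 did not pass the two-sided exact permutation test (p = 0.114; adjusted over 2 tests, 0.114). With single libraries left out it ranged from -2.94 (without C13, exact p = 0.0571, the smallest that 3 against 4 allows) to -1.68 (without C10, exact p = 0.229).

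**Figure D2:**
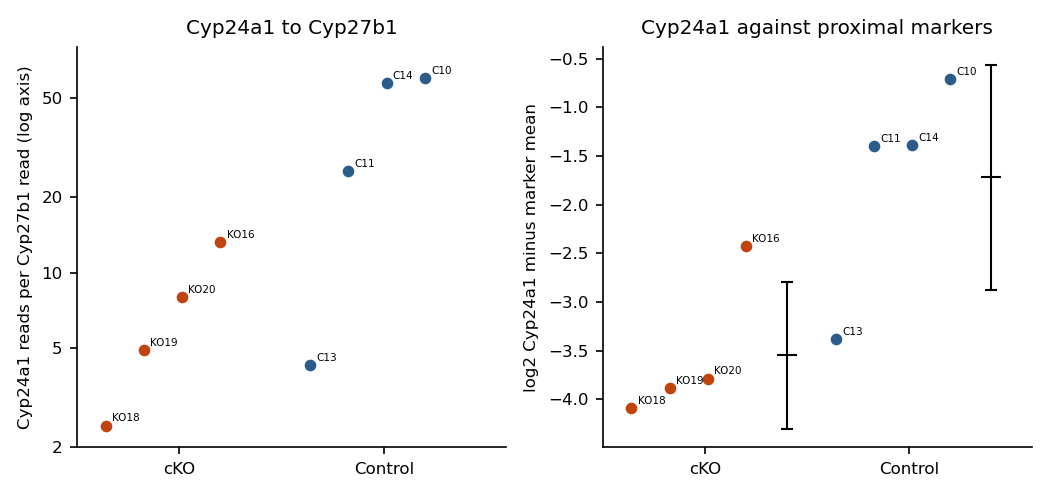
Left, Cyp24a1 reads per Cyp27b1 read on a log axis; right, log2 CPM of Cyp24a1 minus the mean log2 CPM of 12 proximal tubule markers, with the mean ± SD of 4 mice. In both panels C13 lies among the cKO libraries, and C10, C11 and C14 lie above all of them.

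The genes of the first hydroxylation step differed in level and in spread. Cyp27a1 (ENSMUSG00000026170, chromosome 1, 74713574 to 74737892, plus strand) encodes the mitochondrial sterol hydroxylase that also works in bile acid synthesis. It stood at 31.2, 28.4, 24.8 and 26.8 CPM in KO16, KO18, KO19 and KO20, against 40.8, 51.2, 40.3 and 39.2 CPM in C10, C11, C13 and C14. In TMM-scaled CPM all cKO libraries were below all Control libraries, with a small spread: means of 27.8 ± 2.68 CPM in cKO and 42.9 ± 5.59 CPM in Control (SD, n = 4 each). In TPM the groups overlapped, as KO18 (41.2) and KO19 (39.0) stood above C10 (32.0), C13 (34.9) and C14 (33.5). The log2 fold change of -0.62 (SE 0.19, edgeR adjusted p = 0.0573) did not pass in the fit of all libraries. It was -0.31 with library totals alone (adjusted p = 0.342) and -0.48 with upper-quartile factors (adjusted p = 0.125). It passed without KO16 (-0.68, adjusted p = 0.0266) and without KO16, KO20 and C11 (-0.63, adjusted p = 0.00102), whereas leaving out any of the other 7 libraries singly gave adjusted p-values up to 0.216.

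Cyp2r1 (ENSMUSG00000030670, chromosome 7, 114549682 to 114562972, minus strand), the microsomal enzyme known as the main hepatic side-chain hydroxylase, was near the limit of detection. It had 2.28, 1.63, 1.94 and 1.86 CPM in KO16, KO18, KO19 and KO20, against 3.47, 0.88, 2.43 and 2.44 CPM in C10, C11, C13 and C14, from 22 to 72 reads a library. The Control libraries spanned the cKO range, with C11 lowest and C10 highest of all 8. The log2 fold change was -0.26 (SE 0.38, edgeR adjusted p = 0.722), and 0.089 with library totals alone, where the median of all genes was 0.34. Without KO16, KO20 and C11 it was -0.67 (adjusted p = 0.0348).

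Vdr (ENSMUSG00000022479, chromosome 15, 97854425 to 97910630, minus strand) encodes the calcitriol receptor. In TMM-scaled CPM it was lower in each cKO library than in any Control library, without passing the test. It stood at 46.2, 121, 108 and 36.1 CPM in KO16, KO18, KO19 and KO20, against 126, 333, 122 and 151 CPM in C10, C11, C13 and C14. KO18, at 120.5 CPM, nearly met C13, at 121.9 CPM, and C11 stood above all others. The separation depended on the scaling. In TPM, KO18 (67.2) and KO19 (65.3) stood above C10 (38.1), C13 (40.6) and C14 (49.6). With library totals alone the log2 fold change of Vdr was -0.86 (edgeR adjusted p = 0.316), and the median of all genes was 0.34. The means were 77.8 ± 42.8 CPM in cKO and 183 ± 101 CPM in Control (SD, n = 4 each), and the log2 fold change was -1.23 (SE 0.48, edgeR adjusted p = 0.132). The low and the high libraries of this gene were those that leaned most to short and to long transcripts, and Vdr, with 5650 exonic bases, falls in the fifth of 6 length classes. Without KO16, KO20 and C11 its log2 fold change was -0.26 (adjusted p = 0.0976). With the lean of each library as a covariate it was -0.93 (adjusted p = 0.0257).

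**Figure D3:**
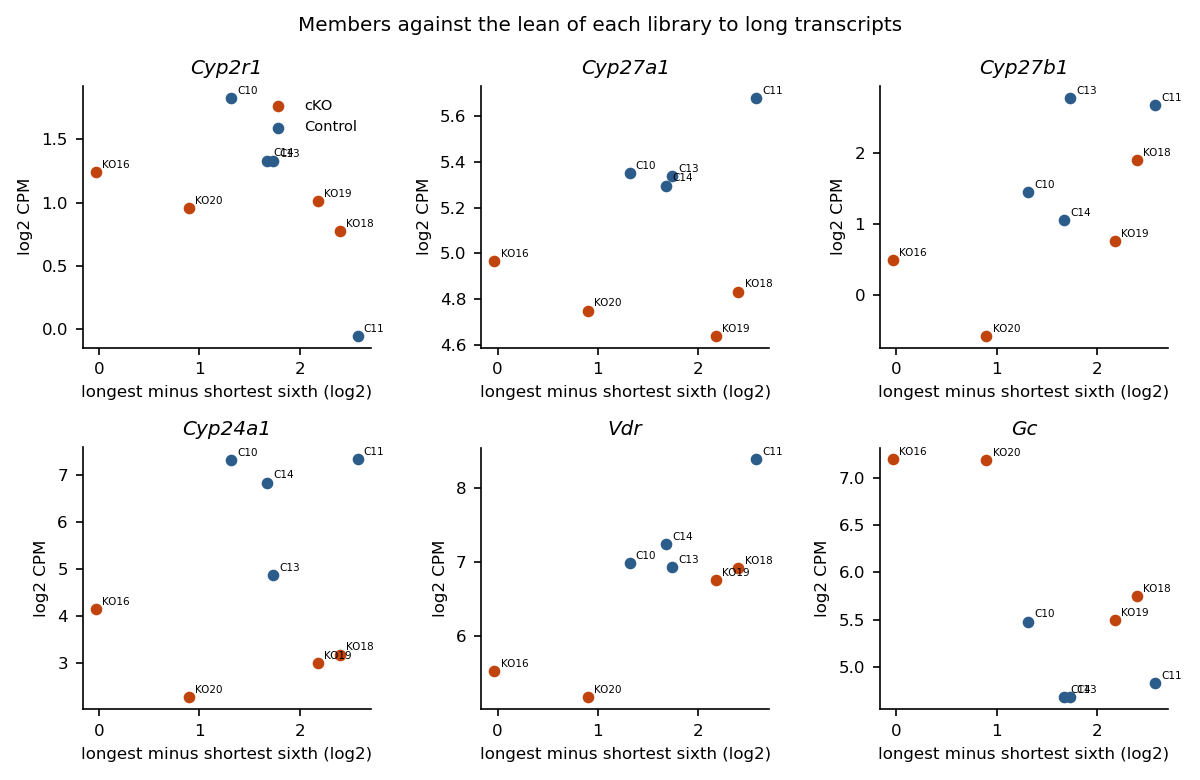
Log2 CPM of each gene (vertical) against the lean of the library to long transcripts (horizontal: mean log2 CPM of the longest minus the shortest sixth of tested genes). Vdr is lowest in KO16 and KO20 and highest in C11, Gc is highest in KO16 and KO20, and Cyp24a1 is lower in KO18 and KO19 than in C11, which have the 3 highest leans. No Control library has a lean as low as those of KO16 (-0.034) and KO20 (0.90), and the nearest is C10 (1.32).

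Gc (ENSMUSG00000035540, chromosome 5, 89417522 to 89457898, minus strand), which encodes the plasma carrier of vitamin D metabolites, rose in cKO kidneys. It stood at 146 CPM in KO16, 53.6 in KO18, 44.9 in KO19 and 146 in KO20, against 44.5 CPM in C10, 28.3 in C11, 25.6 in C13 and 25.5 in C14. KO16 and KO20 were far above all others, and KO19 exceeded C10 by under 1 CPM. The means were 97.6 ± 55.9 CPM in cKO and 31.0 ± 9.10 CPM in Control (SD, n = 4 each), and the log2 fold change was 1.66 (SE 0.43, edgeR adjusted p = 0.0333). The call was lost without C11 (adjusted p = 0.0749), C13 (0.108), C14 (0.103), KO16 (0.0617) or KO20 (0.0978), with limma-voom (0.0512), and without KO16 and KO20 together (log2 fold change 0.66, adjusted p = 0.135). Without KO16, KO20 and C11 it was 0.59 (adjusted p = 0.04). Gc, with 1845 exonic bases, belongs to the shortest sixth of the tested genes, whose median log2 fold change was 0.42. With the lean as a covariate its value was 1.18 (adjusted p = 0.00761).

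The promoters of Gc and Cyp27b1 are shown because Gc is the gene that rose and Cyp27b1 the enzyme that makes the hormone. The 250 bases before the RefSeq start site (GRCm38.p6) are given 5′ to 3′ on the gene's own strand, Gc from chr5:89457899-89458148 on the minus strand and Cyp27b1 from chr10:127047996-127048245 on the plus strand, with motif matches in capitals.

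Gc: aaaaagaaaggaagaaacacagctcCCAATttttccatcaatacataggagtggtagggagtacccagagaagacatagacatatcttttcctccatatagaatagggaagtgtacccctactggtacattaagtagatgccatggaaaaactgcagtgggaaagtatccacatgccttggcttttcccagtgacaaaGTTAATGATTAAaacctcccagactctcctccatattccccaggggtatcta
Cyp27b1: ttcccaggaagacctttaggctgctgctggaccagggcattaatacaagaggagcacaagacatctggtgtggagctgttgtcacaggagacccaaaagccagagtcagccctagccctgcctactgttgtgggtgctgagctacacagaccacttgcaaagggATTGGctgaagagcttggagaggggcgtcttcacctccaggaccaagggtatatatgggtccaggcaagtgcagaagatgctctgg

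The Gc window holds GTTAATGATTAA, which begins 52 bases before the start site and matches GTTAATNATTAA, a form of the site of hepatocyte nuclear factor 1. Searched on both strands, this motif occurs in 20 of 32851 RefSeq promoter windows of that length (0.0609%). It was chosen after the sequence was seen. Both windows also hold the letters of a CCAAT box (CCAAT or its complement ATTGG), found in 33.8% of all windows. A direct repeat built from the half-site AGGTCA, from GGGTCA, from GGTTCA or from AGTTCA, in any pairing, spaced by 3 bases as vitamin D receptor sites are, was searched on both strands too. It is in 0.0396% of all windows and in neither of these. RefSeq windows were found for 5 of the 6 genes. None was found for Cyp24a1, so its promoter was not searched.

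Per exonic length, the order of the genes differed between the groups, which is a description with no test. In TPM, which corrects for length, Gc led in cKO kidneys with 123 ± 43.2 (SD, n = 4), separate from Vdr at 40.4 ± 29.9 TPM. Vdr overlapped Cyp27a1 (33.3 ± 7.84 TPM), and Cyp27a1 stood above Cyp24a1 (6.83 ± 2.68 TPM) with separate ranges. Cyp2r1 (2.36 ± 0.56 TPM) and Cyp27b1 (2.01 ± 1.77 TPM) closed the order with overlapping ranges; Cyp24a1 was above Cyp2r1 in each of the 4 libraries, though their ranges overlapped. In Control kidneys Vdr stood at 69.8 ± 54.2 TPM, Cyp24a1 at 66.7 ± 41.6 TPM, Cyp27a1 at 40.2 ± 13.5 TPM and Gc at 33.0 ± 8.30 TPM (SD, n = 4), and each overlapped its neighbour in this order. Separate from these came Cyp27b1 at 3.60 ± 2.38 TPM and Cyp2r1 at 2.04 ± 0.72 TPM, which overlapped each other.

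**Figure D4:**
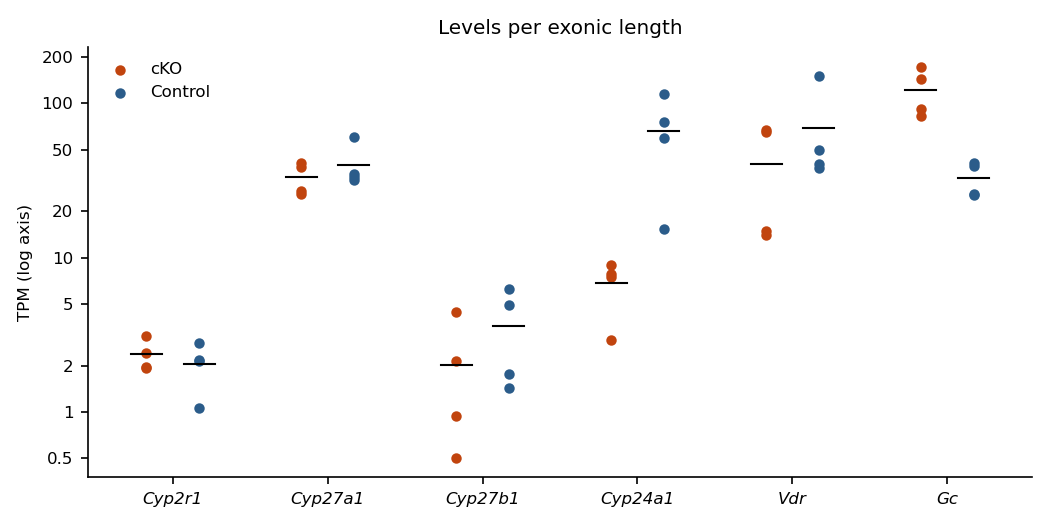
TPM (log axis) of the 6 genes, cKO left of Control at each gene; points are single mice and lines are means of 4. Cyp24a1 averages 6.83 TPM in cKO and 66.7 TPM in Control kidneys, and Gc is the highest of the 6 in cKO kidneys.

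**Figure D5:**
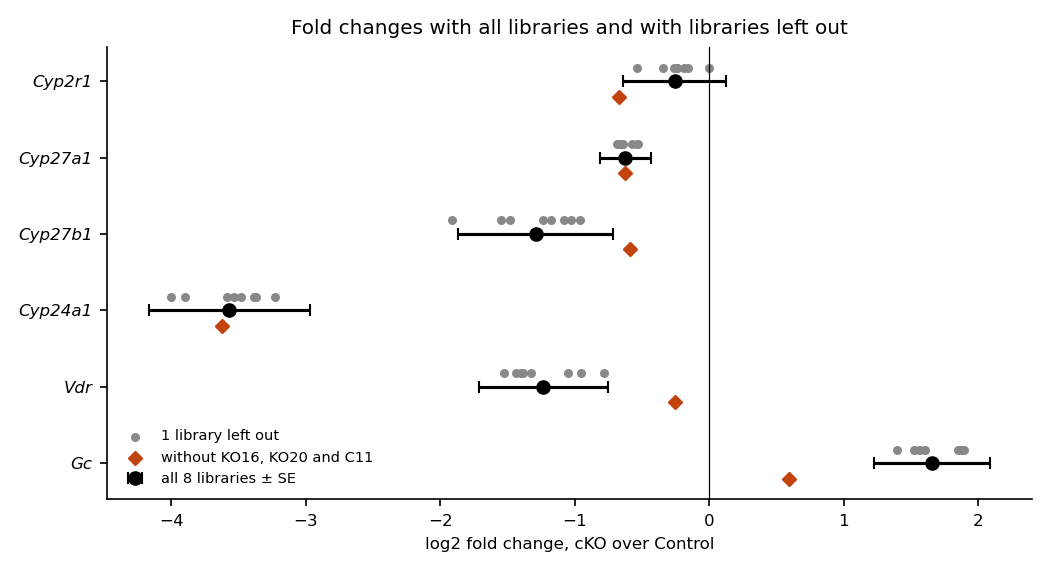
Log2 fold changes, cKO over Control: black points with bars are all 8 libraries ± SE, grey points leave out 1 library each, and red diamonds leave out KO16, KO20 and C11 together. Cyp24a1 stays between -4.01 and -3.23 with single libraries left out, and the diamonds of Vdr (-0.26) and Gc (0.59) lie nearer to 0 than their full fits.

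Around these genes, 9 lists of the vitamin D pathway held 62 different tested genes, of which 4 rose and 10 fell (14.1% of all genes were called). Some genes for the uptake of the carrier complex were lower. Of 6 uptake genes 2 fell, 0 rose and 4 did not pass. An unadjusted p under 0.05 was found for 5 of the 6. DESeq2 called 4 of them lower, against 1462 of all 15382 tested genes. Lrp2, encoding megalin, had 382 ± 166 CPM in cKO and 1341 ± 708 CPM in Control kidneys (log2 fold change -1.81, edgeR adjusted p = 0.0244), and Lrpap1, its chaperone, 274 ± 102 and 582 ± 17.7 CPM (-1.09, adjusted p = 0.0295). The call of Lrp2 was lost without KO19 (adjusted p = 0.0537), KO20 (0.0615) or KO16 and KO20 together (-1.44, 0.0784), and its value was -1.03 (0.000275) without C11 as well, and that of Lrpap1 in all single leave-outs but that of KO16, with adjusted p up to 0.13 (without KO20). The redox partners that pass electrons to these enzymes, 6 genes, gave 0 calls by edgeR, 1 at an unadjusted p under 0.05 and 1 by DESeq2, in each case Por, the reductase that serves microsomal CYP2R1. Por had 93.8 ± 28.3 CPM in cKO and 230 ± 141 CPM in Control kidneys (-1.30, adjusted p = 0.0669), and Cyb5r3, a further reductase gene, -0.42 (0.303).

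Among 12 partners and coregulators of VDR, edgeR gave 0 calls, with 0 at an unadjusted p under 0.05 and 0 by DESeq2. Rxra, which encodes a dimer partner, had -0.67 (adjusted p = 0.42) on the log2 scale and the coactivator gene Ncoa3 -0.68 (0.469); both turned positive without KO16, KO20 and C11 (0.25 and 0.33), while Ncoa3 was called lower with the length lean as a covariate (-0.40, adjusted p = 0.0484). Of 11 genes for the hormonal inputs to Cyp27b1 and Cyp24a1, 1 fell, 0 rose and 10 did not pass. The gene that fell was Pth1r, the parathyroid hormone receptor, with 214 ± 30.8 CPM in cKO and 480 ± 21.4 CPM in Control kidneys (-1.16, adjusted p = 0.00492). Cebpb, a transcription factor reported to act on Cyp24a1, had 0.85 (adjusted p = 0.105, and 0.046 without KO16). It was also called higher by DESeq2 (adjusted p = 0.0403), with library totals alone (0.0293) and without KO16, KO20 and C11 (0.0235).

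Of 9 tested genes known to respond to calcitriol in kidney or gut, 1 rose, 1 fell and 7 did not pass. Their median log2 fold change was 0.01, which does not measure a response, because the list was not split by the direction in which calcitriol moves each gene. DESeq2 called 2 higher and 1 lower. The calcium channel gene Trpv6 had 3.78 ± 0.67 CPM in cKO and 1.32 ± 0.27 CPM in Control kidneys (1.51, edgeR adjusted p = 0.00517), and the paracellular channel gene Cldn2 297 ± 57.9 and 552 ± 15.5 CPM (-0.89, adjusted p = 0.021). The largest log2 fold change of the list, 2.00, was that of S100g, a calcium-binding protein gene, which did not pass (2807 ± 2716 CPM in cKO and 702 ± 343 CPM in Control kidneys, adjusted p = 0.0985). The call of Cldn2 was lost without C10 (adjusted p = 0.0623), C13 (0.0703), C14 (0.0715) or KO20 (0.066), and with library totals alone (-0.53, 0.173). Library totals moved the median of all genes to 0.34.

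Other sterol hydroxylases and the precursor enzyme gene Dhcr7 were examined beside the vitamin D enzymes. Of 11 such genes 6 were tested; 2 fell, 1 rose and 3 did not pass. Cyp7b1, an oxysterol hydroxylase, had 88.3 ± 24.9 CPM in cKO and 367 ± 61.9 CPM in Control kidneys (log2 fold change -2.06, edgeR adjusted p = 0.00173), and Cyp51, of cholesterol synthesis, 124 ± 21.2 and 382 ± 45.6 CPM (-1.62, adjusted p = 0.00177). Ch25h, cholesterol hydroxylase of immune cells, rose by 1.34 (adjusted p = 0.0406), a call that was lost in all single leave-outs but that of KO18, with adjusted p up to 0.12 (without C14), and its value was 0.67 (0.15) without KO16 and KO20. Cyp39a1 had 0.64 (adjusted p = 0.113, and 0.0264 without KO16). It was also called higher by DESeq2 (adjusted p = 0.0276), with library totals alone (0.0361) and with the lean as a covariate (0.0291). The same held without KO16 and KO20 (0.047) and without C11 as well (0.0051). Of 9 Cyp3a genes, whose human relative CYP3A4 can break down vitamin D, only Cyp3a13 was tested (0.52, adjusted p = 0.39), 4 had no read in any library and the counts of this family hold uniquely aligned reads alone.

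Gc belongs to the albumin gene family, whose other members on chromosome 5 differed in direction. Alb, at 90460897 to 90476602 on the plus strand, encodes albumin and had 0.60 ± 0.32 CPM in cKO and 9.16 ± 5.80 CPM in Control kidneys (log2 fold change -3.89, edgeR adjusted p = 0.00216). Afm, at 90518932 to 90553543 on the plus strand, encodes the vitamin E carrier afamin and had 15.8 ± 3.14 and 35.1 ± 5.11 CPM (-1.15, adjusted p = 0.00887). Afp, the fetal member, lies between them and had 3.98 ± 1.77 and 1.84 ± 0.19 CPM (1.10, adjusted p = 0.0531), so 2 of 3 relatives fell, 0 rose and 1 did not pass. Every cKO library was above every Control library for Afp, as for Gc, and DESeq2 called it higher. The log2 fold change of Alb was -2.90 without KO16, KO20 and C11. Of 11 other plasma carrier genes 8 were tested, with 2 higher, 2 lower and 4 not past the test. Ttr, transthyretin, had 29.9 ± 22.7 CPM in cKO and 299 ± 89.1 CPM in Control kidneys (-3.32, adjusted p = 0.00377; -4.53 without KO16, KO20 and C11), and Serpina7, thyroxine-binding globulin, 2.37 ± 1.05 and 0.21 ± 0.13 CPM (3.47, adjusted p = 0.00233). Trf (1.49, adjusted p = 0.0445) and Apoh (-1.31, adjusted p = 0.0486) each lost their calls in single leave-outs, Trf with adjusted p up to 0.12 (without C10) and Apoh up to 0.171 (without KO20). Without KO16 and KO20 together Trf had 0.78 (adjusted p = 0.0937). Of 7 hepatocyte markers, which include Alb and Apoh, 6 were tested, 3 fell and 0 rose; Ahsg held 3 reads in all cKO and 17 in all Control libraries, and the summed level of the list was 144 to 202 CPM in cKO and 302 to 418 CPM in Control libraries. Most of that sum was Apob (121 ± 49.4 CPM in cKO and 275 ± 53.1 CPM in Control kidneys); on the log2 scale Apoa1 differed by 0.91 (edgeR adjusted p = 0.147) and Serpina1a by -0.080 (0.919), and neither passed.

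Markers of other cells moved with the groups as well. Of 5 macrophage markers 4 rose, with a summed level of 210 to 792 CPM in cKO and 92.6 to 103 CPM in Control libraries, and all 6 tubule injury markers rose (3529 to 5218 against 844 to 1012 CPM). Of 6 markers of the last proximal segment 3 fell and 1 rose. No marker of the thick ascending limb, distal convoluted tubule, intercalated cells, podocytes, endothelium or T cells was called by edgeR; 1, 0, 2, 1, 2 and 1 of these lists' genes had an unadjusted p under 0.05, and DESeq2 called 1, 0, 0, 1, 2 and 0. Of 5 principal cell markers 1 rose and 1 fell, and of 4 fibroblast markers 1 rose. Adrenal markers summed to 0.64 to 0.99 CPM in cKO and 0.62 to 1.04 CPM in Control libraries. The 12 proximal tubule markers had a median log2 fold change of -1.58, beside -1.81 for Lrp2, -1.09 for Lrpap1 and -1.16 for Pth1r. The part of these cell types in the values of the 6 genes and of the pathway lists was not tested.

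The genes whose log2 CPM was most like that of each vitamin D gene over the 8 libraries were sought among 12844 other genes, as a description in which the shared group difference and library lean count too. For Cyp24a1 they were Igfbp1, a growth factor binding protein gene (Pearson's r 0.98, Spearman's rho 0.95), Ugt1a6a (0.97 and 0.98) and Tmie (0.97 and 0.90). Igfbp1 had a mean of 1.72 CPM in cKO and 7.91 CPM in Control kidneys (log2 fold change -2.21, edgeR adjusted p = 0.00599). Ugt1a6a shares exons with its family, so its count is uncertain. For Cyp27b1 they were Alas1, Kcnh1 and Ccdc86 (r 0.93 each), and for Vdr Papss2, Hps1 and Pde4c (r 0.99 each). Cyp2r1 was most like Car5b, Zfp78 and Nfil3 (r 0.96 each). Cyp27a1 was most like Suox, Bbs10 and Alpl (r 0.99, 0.99 and 0.98); Alpl, alkaline phosphatase, had 27.5 CPM in cKO and 155 CPM in Control kidneys (-2.50, adjusted p = 0.00465). Gc was most like Ppia, Ebi3 and Serpinf1 (r 0.99 each), and the count of Ppia, which has many near-identical copies, is uncertain.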

How the data were processed

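Per the labels' protocols, libraries were made from whole-kidney RNA with a stranded mRNA kit. The deposited files hold raw counts of reads per Ensembl gene; per the submitters' processing notes cutadapt 1.3, STAR 2.4.0g, HTSeq 0.6.1 and GRCm38 were used. The annotation release and the strand setting were not stated in those notes. Lines naming no gene held 39.7% to 56.2% of a file's total and were left out; reads aligned to several places were not assigned. GENCODE vM21 gave symbols, positions and exonic lengths (46005 of 46517 identifiers matched).

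The comparison used edgeR 4.0.16 (R 4.3.3): TMM factors, filterByExpr (minimum count 10, total 15), quasi-likelihood F test on 8 libraries, no covariates, Benjamini-Hochberg adjustment over 15382 genes, threshold 0.05. SE came from the F statistic; log2 CPM used a prior count of 2. TPM used exonic lengths and no TMM factors. Single values per library had exact permutation tests (scipy 1.17.1). Each mouse gave 1 library, and p-values measure the spread between these libraries (common biological coefficient of variation 0.386). No pair of a group looked like copies (chi-square per degree of freedom at least 7.60).

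Members and lists were chosen with earlier results of these data known, so no list was tested as a set. Named genes were Xpr1, the 6 members, in each pathway list the genes lowest in p (4 at most if at least 3 passed, else 2 at most), and the 3 most correlated genes of each member with a mean of at least 1 CPM; Pfdn4, Afp, Dhcr7, Ahsg, S100g, Apob, Apoa1 and Serpina1a were named beyond this rule, after their values were seen. Alternatives were library totals, upper-quartile and RLE factors, DESeq2 1.42.0, limma-voom (limma 3.58.1), other filters, left-out libraries and the length lean as a covariate.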

Additional observations from a re-analysis of the deposited data

Results flagged for a closer look

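In the Control group, C11 stood apart from the other 3 libraries for Cyp27a1, at a log2 CPM of 5.68, with 0.857 of the group's range between it and its neighbour, more than Dixon's critical value for 4 samples. It was the 1 sample found in 16 groups examined this way, and chance marks about 1 in 20 groups. C11 is also the library that leaned most to long transcripts; without it the log2 fold change of Cyp27a1 was -0.53.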

How the results depend on the processing

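Under the alternatives fitted across all genes, Cyp24a1 was called lower in each and Cyp27b1 in none. Cyp2r1 reversed with library totals alone (0.089; this scaling moved the median of all genes to 0.34, and upper-quartile factors to 0.14) and was called lower without KO16, KO20 and C11 (-0.67); Rxra (0.25) and Ncoa3 (0.33) reversed there. Vdr was called lower by DESeq2 (-1.24) and with the length lean as a covariate (-0.93), but not with library totals alone (-0.86). Cyp27a1 was called lower by DESeq2 (-0.61), with the lean (-0.63), without KO16 and KO20 (-0.69) and without C11 as well (-0.63), and ranged from -0.68 to -0.53 with single libraries left out. It was not called with library totals alone (-0.31) or upper-quartile factors (-0.48). Gc lost its call with limma-voom (1.49) and without KO16 and KO20 (0.66), and ranged from 1.40 to 1.89 with single libraries left out. Among the named genes of the lists, Lrp2 (-1.48), Lrpap1 (-0.78), Cldn2 (-0.53), Afm (-0.81) and Apoh (-1.01) lost their calls with library totals alone. Lrpap1 and Apoh lost theirs with RLE and upper-quartile factors too, and Trf with RLE factors.

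Genes called higher, 1154 in all, numbered 2374 with library totals, 2530 with the lean, 4689 without KO16, KO20 and C11, and 531 to 1363 with single libraries left out; genes called lower, 1016, numbered 548, 2538, 4486, and 566 to 1334. In the pathway lists 4 genes were higher, against 10 with library totals, 2 with no filter, 9 by DESeq2, 2 by limma-voom, 9 with the lean, 21 without the 3 libraries, and 2 to 5 with single libraries left out; 10 were lower, against 5 with library totals, 19 without the 3 libraries, and 6 to 11. The lowest counts came without C10, C13, C14 or KO20 for genes called higher (724, 531, 595 and 745), and without C13, C14 or KO20 for genes called lower (575, 605 and 566). The causes were not tested. Cyp27b1 (14 to 157 reads a library) and Cyp2r1 (22 to 72 reads) rest on the fewest reads in all of the 6 genes. No paired analysis was possible because the groups share no replicate numbers and the labels do not tie mice to litters.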
